A study of Mus musculus with 35 samples.

Results

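The genes described here carried H3K27ac and H3K27me3 together at their promoters in wild-type (WT) mouse neural progenitor cells. A gene was counted when the window of 1 kb on either side of one of its transcript starts overlapped a peak of each mark in both WT lines, 532 and 541. Of 23906 genes with a known transcript in the authors' merged assembly, 1333 met this rule, and 1240 of them met it at a single window. The WT peak lists chose these genes, so their WT peak values are descriptions and carry no test.

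The study compared neural progenitor cells from embryos with and without Mettl14. The knockout (KO) lines 530 and 534 and the WT lines 532 and 541 each gave 1 H3K27ac and 1 H3K27me3 peak list, called against that line's input. RNA-seq of batch 3 held 2 KO and 2 WT libraries labelled with the same 4 lines. RNA-seq of batch 1 held 3 KO libraries (lines 67, 73 and 78), 3 libraries heterozygous for the Mettl14 knockout (Het; lines 47, 48 and 50) and 3 WT libraries (lines 43, 72 and 75). The m6A peak lists came from WT cells only. The expression tables number the libraries within a group without tying them to lines, so numbers below only name libraries. The targeted allele was built from a floxed Mettl14 gene with a loxP site beside exon 2 in G4 embryonic stem cells. The labels describe both a germline deletion through EIIa-Cre and a brain deletion through nestin-Cre, and do not say which of them gave these cultures or whether each line came from a separate embryo. The p-values therefore measure the spread between these libraries.

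H3K27 is a single lysine of histone H3 that can be either acetylated or methylated. Acetylation is placed mainly by p300 and CBP and marks active promoters and enhancers, whereas trimethylation is placed by Polycomb repressive complex 2 and marks developmental genes kept at low expression. Peaks of both marks at the same promoter in a bulk culture can come from neighbouring nucleosomes, from different alleles or from different cells, which cannot be told apart here. Mettl14 partners Mettl3 in the methyltransferase complex that writes N6-methyladenosine (m6A), the main internal modification of messenger RNA.

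The promoters were rich in CG dinucleotides, and 7 of them are shown because they stand for the outcomes in KO cells described below. Otx2, Pax6 and Dhh had H3K27ac in neither KO line, Nrp2 and Gli2 had H3K27me3 in neither KO line, and Kif26a and Isl2 kept both marks in both KO lines. Each sequence is the RefSeq promoter of GRCm38.p6 (the assembly also called mm10), 250 bases before to 50 bases after the annotated start, read on the gene's strand with CG dinucleotides in capitals.
Otx2 (chr14:48665060-48665359, minus strand): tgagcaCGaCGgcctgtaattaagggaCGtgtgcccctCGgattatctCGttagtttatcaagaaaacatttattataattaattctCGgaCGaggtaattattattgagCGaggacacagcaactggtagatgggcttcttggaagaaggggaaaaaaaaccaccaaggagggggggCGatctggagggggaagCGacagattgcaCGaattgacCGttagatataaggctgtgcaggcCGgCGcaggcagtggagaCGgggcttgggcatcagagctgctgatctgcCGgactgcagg
Pax6 (chr2:105668646-105668945, plus strand): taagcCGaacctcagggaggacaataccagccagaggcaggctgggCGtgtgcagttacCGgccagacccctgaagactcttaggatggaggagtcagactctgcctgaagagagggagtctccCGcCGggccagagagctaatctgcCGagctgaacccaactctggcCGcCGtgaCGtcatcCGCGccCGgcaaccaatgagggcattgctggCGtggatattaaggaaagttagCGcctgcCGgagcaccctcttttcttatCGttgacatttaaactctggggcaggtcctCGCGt
Dhh (chr15:98898491-98898790, minus strand): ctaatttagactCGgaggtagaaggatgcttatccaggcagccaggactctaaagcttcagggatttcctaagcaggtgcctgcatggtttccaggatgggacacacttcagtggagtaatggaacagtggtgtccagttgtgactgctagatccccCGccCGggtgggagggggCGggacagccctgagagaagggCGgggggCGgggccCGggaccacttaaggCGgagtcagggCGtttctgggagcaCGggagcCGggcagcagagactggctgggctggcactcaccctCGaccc
Nrp2 (chr1:62703067-62703366, plus strand): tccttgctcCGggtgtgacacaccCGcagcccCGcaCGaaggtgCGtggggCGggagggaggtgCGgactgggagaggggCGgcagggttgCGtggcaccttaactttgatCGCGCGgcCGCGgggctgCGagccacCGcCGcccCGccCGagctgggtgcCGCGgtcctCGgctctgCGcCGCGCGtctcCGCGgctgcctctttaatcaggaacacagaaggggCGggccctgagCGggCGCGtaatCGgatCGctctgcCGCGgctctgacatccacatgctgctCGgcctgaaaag
Gli2 (chr1:119053570-119053869, minus strand): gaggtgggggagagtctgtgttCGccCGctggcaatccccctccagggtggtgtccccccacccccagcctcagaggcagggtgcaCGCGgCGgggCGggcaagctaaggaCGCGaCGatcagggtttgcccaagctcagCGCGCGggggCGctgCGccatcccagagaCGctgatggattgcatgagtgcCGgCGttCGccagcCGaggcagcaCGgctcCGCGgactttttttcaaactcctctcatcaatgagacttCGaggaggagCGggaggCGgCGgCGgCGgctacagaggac
Kif26a (chr12:112145958-112146257, plus strand): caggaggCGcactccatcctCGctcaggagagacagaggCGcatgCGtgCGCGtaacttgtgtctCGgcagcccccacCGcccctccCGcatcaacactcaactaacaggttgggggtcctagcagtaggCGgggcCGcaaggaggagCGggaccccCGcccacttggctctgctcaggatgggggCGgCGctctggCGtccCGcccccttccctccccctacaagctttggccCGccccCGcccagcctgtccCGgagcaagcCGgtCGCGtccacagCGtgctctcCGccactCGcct
Isl2 (chr9:55540899-55541198, plus strand): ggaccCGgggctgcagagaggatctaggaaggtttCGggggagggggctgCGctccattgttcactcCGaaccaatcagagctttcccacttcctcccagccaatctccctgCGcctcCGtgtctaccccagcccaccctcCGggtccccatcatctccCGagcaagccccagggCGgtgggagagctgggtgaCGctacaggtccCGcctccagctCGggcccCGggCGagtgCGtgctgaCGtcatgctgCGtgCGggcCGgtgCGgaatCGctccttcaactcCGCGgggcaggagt
Nrp2 held 37 CG dinucleotides in these 300 bases and Dhh held 12, the most and the fewest of the 7. The ratio of observed to expected CG was 0.99 at Nrp2, 0.83 at Gli2, 0.73 at Kif26a, 0.68 at Isl2, 0.89 at Otx2, 0.70 at Pax6 and 0.44 at Dhh.

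RefSeq promoters whose start lay within 100 bases of the transcript start of a chosen window were found for 834 of the 1333 genes (62.6%). Their median ratio of observed to expected CG was 0.741 and their median GC content 66.0%. Promoters of genes with H3K27ac alone in both WT lines had a median ratio of 0.791, those with H3K27me3 alone 0.479, those with neither mark 0.162, and all promoters together 0.585. A ratio of at least 0.6 was met by 71.1% of the promoters with both marks, 76.5% with H3K27ac alone, 36.3% with H3K27me3 alone and 2.42% with neither. The motif GGGCGG, searched on both strands and overlapping any CG count by its own letters, lay in 71.7% of the promoters with both marks, 66.6% with H3K27ac alone and 47.4% of all promoters. TATAAA, searched the same way, lay in 7.07% of them, 6.11% with H3K27ac alone and 13.1% of all promoters. CCAAT lay in 31.7% of them, 39.0% with H3K27ac alone and 38.9% of all promoters. By outcome in KO cells, the median ratio was 0.610 over the 65 matched promoters with H3K27ac in neither KO line, 0.630 over the 150 with H3K27ac in 1 KO line, 0.729 over the 56 with H3K27me3 in 1 KO line, 0.775 over the 39 with H3K27me3 in neither, and 0.776 over the 513 with both marks in both. These shares describe letters in the windows and say nothing of factor binding.

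The peaks that chose the genes were modest in height. Fold enrichment over input is the authors' own value per peak, and it is given here within a list. The median H3K27ac fold at these promoters was 3.83 in KO 530, 4.47 in KO 534, 3.78 in WT 532 and 3.90 in WT 541. Promoters with H3K27ac alone had medians of 7.03, 8.63, 7.39 and 7.38 in the same lists. The median H3K27me3 fold was 4.61 in KO 530, 4.59 in KO 534, 4.06 in WT 532 and 4.55 in WT 541, whereas promoters with H3K27me3 alone had 6.30, 6.39, 5.37 and 6.26. Among genes with both marks, peaks of the 2 marks shared at least 1 base of the window in 782 of 894 genes in KO 530, 1045 of 1094 in KO 534, 1187 of 1333 in WT 532 and 1201 of 1333 in WT 541. The median stretch shared was 493, 613, 525 and 555 bases in the same order, less than the median of 1610, 1638, 1192 and 1248 window bases that H3K27me3 covered. Just inside the rule, the least covered windows were those of Rufy4 (4 bases), Kcnf1 (7 bases) and St6galnac5 (7 bases) in 1 of the 4 WT lists. Just outside it, the farthest of the 4 nearest WT peaks lay 1001 bases from the start of Prlhr, 1004 from Mgarp and 1006 from Whrn. In all, 152 of the genes (11.4%) shared a stretch of window with another of them, as divergent neighbours do.

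**Figure D1:**
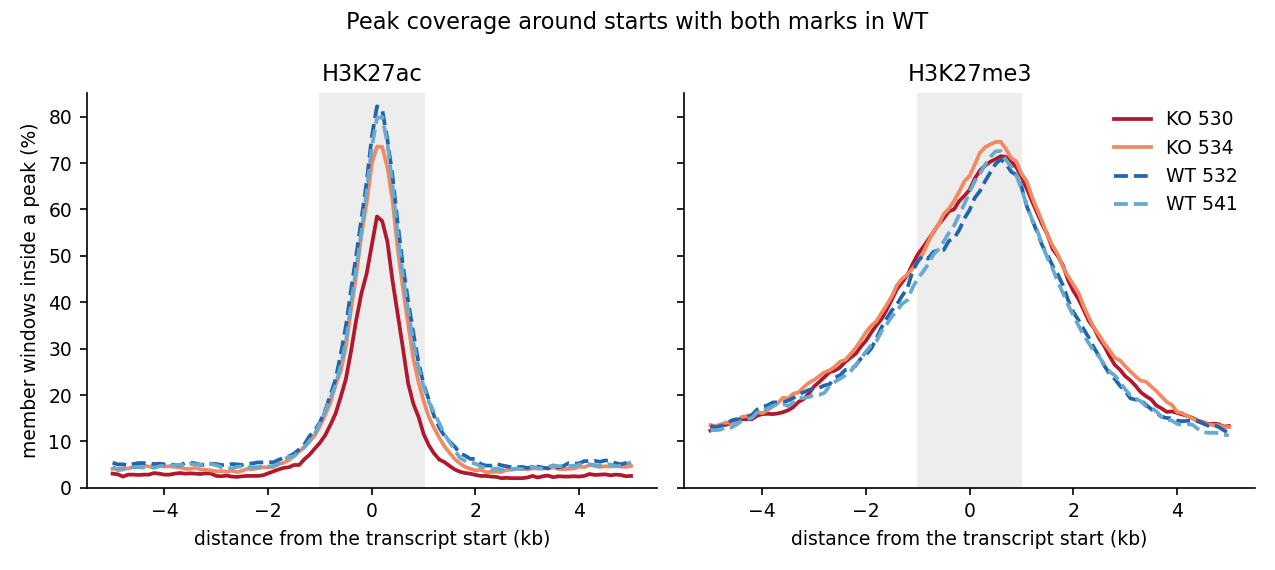
Share of the 1441 windows (%) lying inside a peak of each mark at each distance from the transcript start (kb, transcription running to the right), by line, with the window used for the choice in grey. H3K27ac covered a narrow stretch around the start, lowest in KO 530 (52.3% at the start, beside 69.9% in KO 534, 75.6% in WT 532 and 73.4% in WT 541), and H3K27me3 spread beyond the window in all 4 lines.

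In KO cells each line still had H3K27me3 at over 90% of these promoters, and H3K27ac at fewer of them. H3K27me3 was present at 1210 genes (90.8%) in KO 530 and 1228 (92.1%) in KO 534. It was missing at 123 (9.23%) and 105 (7.88%), beside 10.6% and 8.84% of all genes with H3K27me3 in both WT lines. H3K27ac was present at 1005 genes (75.4%) in KO 530 and 1196 (89.7%) in KO 534. It was missing at 328 (24.6%) and 137 (10.3%), beside 5.52% and 2.87% of all genes with H3K27ac in both WT lines. It was missing in KO 530 alone at 224 genes and in KO 534 alone at 33. Both marks were present in 894 genes in KO 530 and 1094 in KO 534, and 831 (62.3%) had both in both KO lines.

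The remaining genes fell into 4 larger outcomes. H3K27ac was in neither KO line and H3K27me3 in both at 102 genes (7.65%). H3K27ac was in 1 KO line and H3K27me3 in both at 242 (18.2%). H3K27me3 was in neither KO line and H3K27ac in both at 63 (4.73%). H3K27me3 was in 1 KO line and H3K27ac in both at 78 (5.85%), and the last 17 genes had other combinations. Whatever the other mark, H3K27ac was missing from both KO lines at 104 genes (7.80%), beside 1.97% of all genes with it in both WT lines, and H3K27me3 at 70 (5.25%), beside 5.40%. No test was made of these shares, since each line gave 1 list and the choice required peaks in the WT lists but not in the KO lists. Taken from the other side, 1233 genes had both marks in both KO lines at any 1 of their windows, and 832 of those were among the 1333 (67.5%). The count of 831 above is of marks at the windows that chose the genes. Of the 1233, H3K27me3 was in neither WT line at 154 (12.5%) and H3K27ac in neither WT line at 25 (2.03%).

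**Figure D2:**
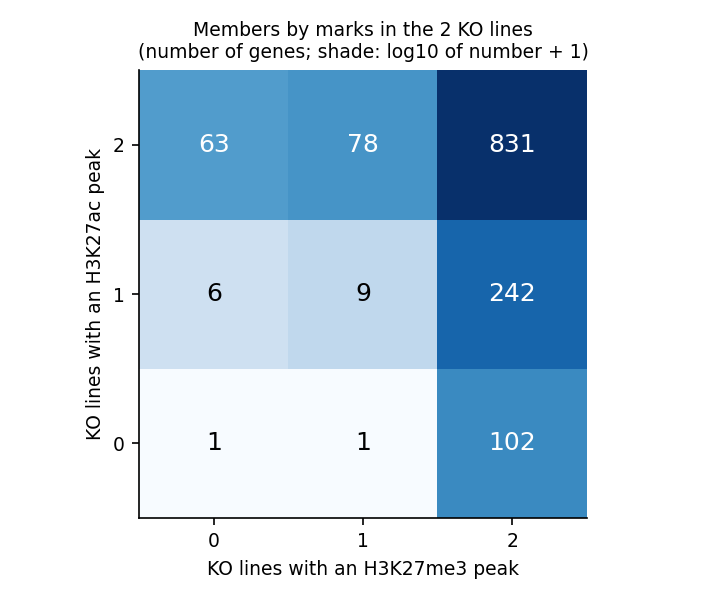
Number of the 1333 genes by how many of the KO lines had an H3K27ac peak (vertical axis) and an H3K27me3 peak (horizontal axis), with the shade on a log10 scale. The fullest cell holds the 831 genes with both marks in both KO lines, and 242 and 102 genes had H3K27me3 in both with H3K27ac in 1 or neither.

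The lists differed in size, which bears on every presence count. H3K27ac peaks covered 50.5 Mb in KO 530, 64.8 Mb in KO 534, 82.7 Mb in WT 532 and 68.7 Mb in WT 541, so KO 530 had the least. H3K27me3 peaks covered 48.9 Mb, 65.5 Mb, 58.8 Mb and 42.2 Mb in the same lines. On chromosome X the H3K27me3 lists held 426 peaks in KO 530, 16853 in KO 534, 11539 in WT 532 and 228 in WT 541. Only 14 of the genes lie there, and on autosomes alone 62.3% had both marks in both KO lines. With the genes chosen on WT 532 alone, 2109 qualified and 44.4% of them had both marks in both KO lines. The contribution of list size to the outcomes was not tested.

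Promoters without H3K27ac in KO cells had low H3K27ac and broad H3K27me3 peaks already in WT. The 102 genes with H3K27ac in neither KO line had median WT H3K27ac folds of 3.03 (WT 532) and 3.24 (WT 541), and median H3K27me3 folds of 6.61 in KO 530, 6.93 in KO 534, 5.27 in WT 532 and 5.67 in WT 541. Their H3K27me3 peaks were a median of 4026 bases wide in KO 530, 4123 in KO 534, 3866 in WT 532 and 3508 in WT 541. Promoters without H3K27me3 in KO cells showed the opposite profile. The 63 genes had median H3K27me3 folds of 3.24 in WT 532 and 3.51 in WT 541, with peaks 892 and 757 bases wide, and their median H3K27ac fold was 5.41 in KO 530, 6.92 in KO 534, 5.14 in WT 532 and 5.41 in WT 541. A shallow peak lies nearer the caller's threshold, and the contribution of this to its absence from another list was not tested.

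Genes with both marks were expressed at a low level, between those with either mark alone. Levels are given as FPKM (fragments per kilobase of transcript, scaled to the depth of the library), the authors' length-scaled value, as group means. Of the 1333 genes, 1289 had an RNA entry of their own in both tables, 26 lay in loci that the assembly joined to other genes, and 18 had no shared entry. The median was 0.559 FPKM in KO cells against 0.664 in WT cells of batch 1. In batch 3 it was 0.452 FPKM in KO cells against 0.563 in WT cells. With H3K27ac alone the medians were 11.9 (KO) and 12.7 (WT) in batch 1, and 13.4 (KO) and 12.9 (WT) in batch 3. With H3K27me3 alone they were 0.0152 (KO) and 0.00879 (WT) in batch 1, and 0 in both groups of batch 3. At least 1 FPKM was reached by 505 genes with both marks in KO (39.1%) and 541 in WT libraries (41.9%) of batch 1, and by 478 in KO (36.7%) and 525 in WT (40.3%) of batch 3.

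Levels differed by the marks found in KO cells. Where H3K27ac was in neither KO line, the median was 0.0682 FPKM in KO and 0.145 in WT libraries of batch 1, and 0.0429 in KO and 0.125 in WT of batch 3. Where H3K27me3 was in neither KO line, it was 4.99 FPKM in KO and 2.44 in WT libraries of batch 1, and 4.54 in KO and 3.04 in WT of batch 3. Where both marks stayed, it was 0.774 FPKM in KO and 0.855 in WT libraries of batch 1, and 0.689 in KO and 0.738 in WT of batch 3.

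**Figure D3:**
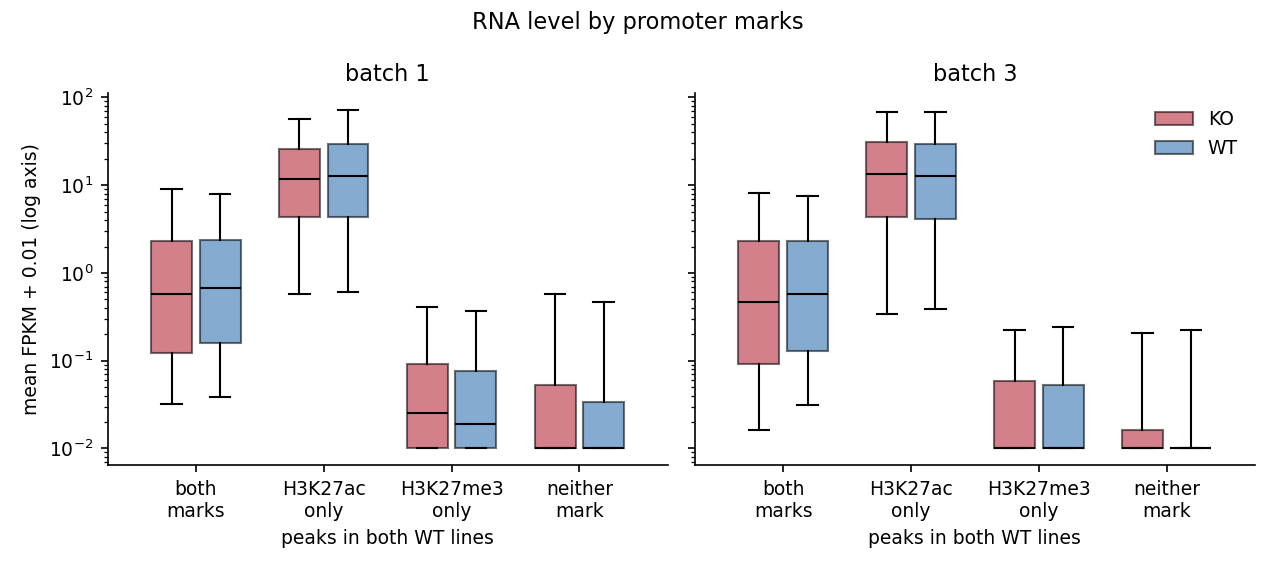
RNA level (mean FPKM + 0.01, log axis) of genes grouped by the WT promoter marks, with KO left of WT in each batch; boxes span the quartiles, lines mark medians and whiskers the 10th to 90th percentiles. Boxes of genes with both marks lie between those of genes with H3K27ac alone, whose medians are 11.9 to 13.4 FPKM, and those of genes with H3K27me3 alone.

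Before the RNA comparison, the libraries were checked. They held 14087371 to 20046524 fragments and none was a copy of another. Fragments per 1000000 (CPM, after TMM scaling) over the whole Mettl14 locus were 21.6 ± 1.38 in KO, 23.7 ± 0.90 in Het and 23.6 ± 1.17 in WT of batch 1 (SD, n = 3 each), and 26.5 ± 5.37 in KO and 36.6 ± 1.67 in WT of batch 3 (SD, n = 2 each). This sum spans the gene outside the targeted exon and does not check the deletion. Neural progenitor markers summed to 5209 to 5627 CPM in KO, 8465 to 9286 in Het and 8073 to 8713 in WT libraries of batch 1, and to 5648 to 5720 in KO and 7922 to 8464 in WT of batch 3. Of these 12 markers, 4 rose and 5 fell in KO. Neuron markers summed to 973 to 1171 CPM in KO and 1125 to 1176 in WT libraries of batch 1, and to 815.5 to 978.1 in KO and 998.1 to 1128 in WT of batch 3. Oligodendrocyte lineage markers summed to 1214 to 1469 CPM in KO and 1452 to 1807 in WT libraries of batch 1, and to 2545 to 2884 in KO and 2044 to 2192 in WT of batch 3. Pluripotent cell markers summed to 11.1 to 14.6 CPM in KO and 16.8 to 20.01 in WT libraries of batch 1, and to 17.5 to 22.8 in KO and 37.2 to 48.1 in WT of batch 3. Fibroblast and pericyte markers summed to 15.9 to 16.2 CPM in KO and 5.00 to 5.60 in WT libraries of batch 1, and to 9.495 to 18.5 in KO and 2.91 to 6.22 in WT of batch 3, with Lum and Dcn under 0.5 CPM throughout. Astrocyte markers summed to 432.2 to 641.1 CPM in KO and 412.5 to 577.5 in WT libraries of batch 1. In batch 3 they summed to 189.5 to 293.6 CPM in KO and 243.8 to 285.2 in WT. Of the 6 astrocyte markers tested over batches, 4 rose and 2 fell in KO. Microglia markers stayed at or under 2.19 CPM and endothelial markers at or under 5.65 CPM. In bulk RNA, fewer cells of a type and less RNA per cell cannot be told apart, and the contribution of cell composition to the changes below was not tested.

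RNA of these genes changed in both directions, in shares near those of all genes. Tests are edgeR's quasi-likelihood test over all named genes that passed the filter on low counts. Benjamini-Hochberg adjustment was used, and genes were called at an adjusted p under 0.05. Over both batches, 964 of the 1333 genes passed the filter on low counts and 593 were called, beside 63.6% of all 13471 genes tested. Of the 964, 318 rose (33.0%) and 275 fell (28.5%) in KO, beside 32.8% rising and 30.8% falling among all. In batch 1, 340 rose and 285 fell of 947, beside 34.3% and 35.0% of all 13677 genes tested there. In batch 3, 157 rose and 165 fell of 861, beside 17.3% and 14.4% of all. The sizes of change were larger in these mostly low genes: the median size of the log2 fold change was 0.80, beside 0.44 over all genes tested, and their median log2 fold change was 0.07. A low gene can pass the filter through the group where it is high, so these counts are not support for a property of all 1333. Over every gene with an entry, tested or not, the KO mean was higher for 657, lower for 597 and equal for 38 of 1292 in batch 1, and higher for 564, lower for 664 and equal for 76 of 1304 in batch 3.

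The direction of RNA change differed by which mark was missing in KO cells. Where H3K27ac was in neither KO line, 5 genes rose and 22 fell of 45 tested over both batches, with a median log2 fold change of -0.56. Where it was in 1 KO line, 20 rose and 51 fell of 129, with a median of -0.30. Where both marks stayed, 215 rose and 187 fell of 659, with a median of 0.08. Where H3K27me3 was in 1 KO line, 42 rose and 12 fell of 72, with a median of 0.66. Where it was in neither, 33 rose and 2 fell of 53, with a median of 0.53. With windows of 500 bases on either side, 19 rose and 0 fell of 29. With at least 500 window bases under each mark required, 16 rose and 0 fell of 24. Both rules also applied to the KO lists, so a mark missing there means below the rule. Genes with 1 mark in WT moved the same way, so the direction is not particular to promoters with both marks. Where genes with H3K27ac alone had it in neither KO line, 10 rose and 26 fell of 57, with a median of -0.545. Where genes with H3K27me3 alone had it in neither KO line, 9 rose and 0 fell of 12, with a median of 1.185. Among all genes tested, 32.8% rose and 30.8% fell. These counts have no test of the differences between outcomes, and the outcomes were read from 2 KO lists.

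Among tested genes the direction was found in each batch, although only batch 3 is labelled with the lines used for the histone marks. With untested genes included, genes without H3K27ac were split nearly evenly in batch 1, as counted below. With H3K27ac in neither KO line, 9 rose and 20 fell of 43 in batch 1, and 1 rose and 22 fell of 37 in batch 3. That count of 22 was 14 without WT library 1 of batch 3, and 9 by limma on FPKM. With H3K27me3 in neither KO line, 33 rose and 7 fell of 53 in batch 1, and 23 rose and 0 fell of 52 in batch 3. Counted over every gene with an entry, the KO mean was higher for 42 and lower for 50 of 98 genes without H3K27ac in batch 1, and higher for 21 and lower for 69 in batch 3. For genes without H3K27me3 it was higher for 45 and lower for 17 of 63 in batch 1, and higher for 48 and lower for 11 of 62 in batch 3. With no filter on low counts, 7 rose and 29 fell of 92 genes without H3K27ac.

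**Figure D4:**
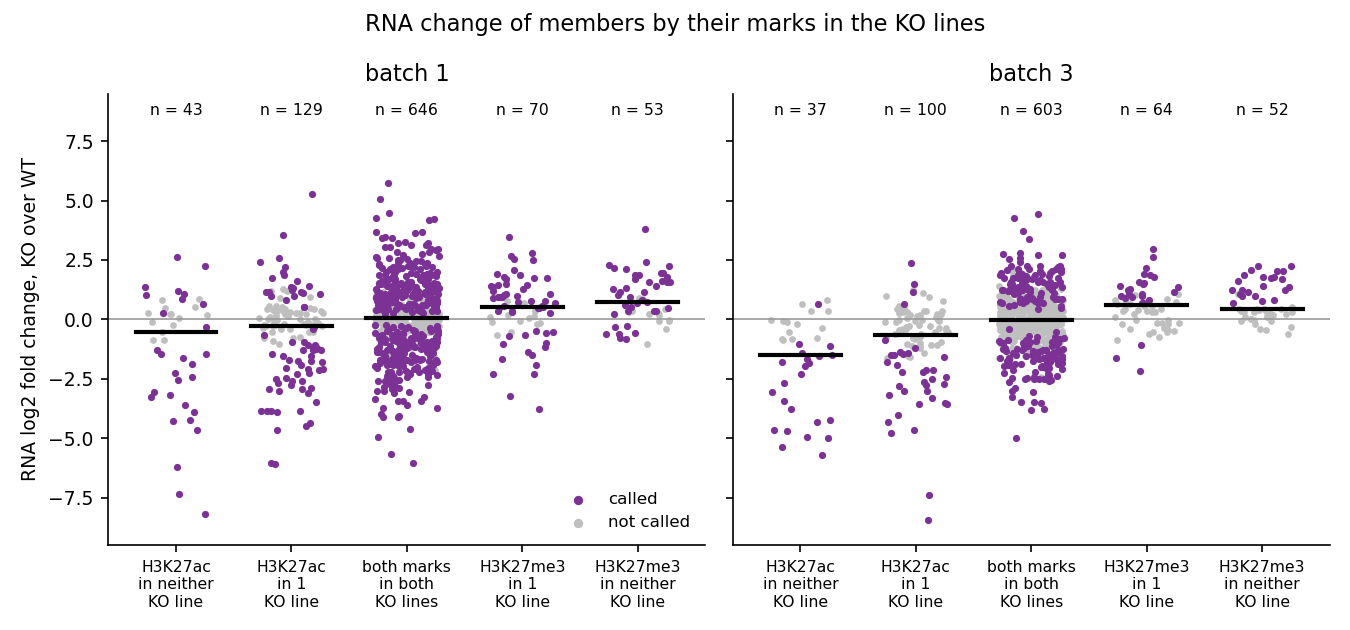
Log2 fold change of RNA, KO over WT, of each tested gene (points, coloured where called) by the marks found in the KO lines, in each batch, with the median as a line. Genes with H3K27ac in neither KO line have medians of -0.52 in batch 1 and -1.51 in batch 3, and those with H3K27me3 in neither have 0.74 and 0.44.

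Among the 102 genes without H3K27ac in KO cells were homeobox genes of the developing brain and eye. Homeodomain factors, which bind DNA and set regional identity, made up 28 of the 1333 genes. Of these, 9 (Dlx1, Dlx2, Gbx1, Nkx6-2, Onecut2, Otx2, Pax6, Six3 and Vax1) had H3K27ac in neither KO line, and 13 kept both marks. Of the 9, Nkx6-2, Onecut2, Otx2, Pax6 and Six3 fell over batches, while Dlx1 had 0.89 ± 0.40 (adjusted p = 0.064) and Dlx2 -0.02 ± 0.50 (adjusted p = 0.98). Dlx1 rose in batch 1 alone (1.35, adjusted p = 0.012). Otx2, which patterns the forebrain and midbrain, had 0.474, 0.685 and 0.494 CPM in KO and 2.95, 4.73 and 6.13 in WT of batch 1. In batch 3 it had 0.332 and 0.115 CPM in KO and 11.3 and 7.16 in WT. Every KO library lay below every WT library, and the log2 fold change over batches was -3.82 ± 0.43 (SE, adjusted p = 5.8e-06).

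Six3, a factor of the anterior forebrain and eye, was chosen for description after its values were seen, as was Pax6. Six3 had 0.316, 0.457 and 0.282 CPM in KO and 2.20, 1.58 and 2.57 in WT libraries of batch 1, and 2.52 and 3.22 in KO and 30.1 and 17.2 in WT of batch 3. Its WT level was far higher in batch 3 than in batch 1, and KO lay below WT in each batch (-2.86 ± 0.32, adjusted p = 5.1e-06). Its divergent neighbour Six3os1, a long noncoding RNA under the same H3K27me3 peak, had 1.58, 1.71 and 1.55 CPM in KO and 32.4, 28.9 and 33.7 in WT libraries of batch 1, and 1.79 and 2.24 in KO and 83.2 and 43.0 in WT of batch 3 (-4.56 ± 0.43, adjusted p = 1.4e-06). Pax6, which marks radial glia and sets dorsal identity, fell least of these. It had 29.0, 26.0 and 25.8 CPM in KO and 31.0, 35.5 and 33.8 in WT libraries of batch 1, and 21.8 and 18.8 in KO and 42.1 and 40.9 in WT of batch 3 (-0.58 ± 0.13, adjusted p = 0.0013). Its changes differed between the batches by the test of that difference (adjusted p = 0.0053).

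Of the 28 homeodomain genes, 21 were tested over both batches, of which 6 rose and 10 fell. Over all genes tested the shares were 32.8% rising and 30.8% falling. The whole list of 174 homeodomain genes, these 28 included, had 17 rising and 12 falling of 47 tested. En2, a midbrain and hindbrain factor with H3K27ac in 1 KO line, fell by 3.63 ± 0.58 on the log2 scale. Barx2, a factor of muscle and epithelia, and Barhl2, a factor of retinal and spinal neurons, kept both marks and had log2 fold changes of -3.44 ± 0.64 and -3.29 ± 0.64. Those that rose included Irx3, Lhx2, Prox1 and Satb1, which kept both marks in both KO lines, and Zfhx4, which had H3K27ac in 1 KO line. Prox1, a factor of neurogenesis and hippocampal granule cells chosen after its values were seen, had 75.2, 91.5 and 90.1 CPM in KO and 30.04, 33.3 and 31.2 in WT of batch 1. Batch 3 had 87.7 and 53.8 CPM in KO and 46.1 and 55.7 in WT, where the groups overlapped (1.08 ± 0.18 over batches, adjusted p = 0.00019).

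Signalling and matrix genes without H3K27ac included the largest falls. Dhh encodes desert hedgehog, a ligand of the Hedgehog pathway known from Schwann cells and gonads. It had 0.211, 0.286 and 0.0706 CPM in KO and 45.2, 28.6 and 24.9 in WT libraries of batch 1, and 1.39 and 2.35 in KO and 39.0 and 31.8 in WT of batch 3. Every KO library lay far below every WT library (-5.39 ± 0.43, adjusted p = 3.2e-07). Adamts19, a secreted metalloprotease, had no fragment in the 3 KO libraries of batch 1 against 2.51, 2.17 and 1.73 CPM in WT. Set against 3 fragments per library, 0.18 CPM, it was at least 11.8-fold lower in KO. In batch 3 it had 0 and 0.0574 CPM in KO and 2.18 and 1.82 in WT. Pcp4l1, a relative of the calmodulin-binding protein Pcp4, had 0.211, 0.114 and 0.141 CPM in KO and 9.60, 13.9 and 12.99 in WT libraries of batch 1, and 0.598 and 0.287 in KO and 15.5 and 12.7 in WT of batch 3 (-5.56 ± 0.29, adjusted p = 1.5e-08).

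Other genes without H3K27ac were expressed at lower levels. Trim71, an RNA-binding ubiquitin ligase of early progenitors, had 0.158, 0.286 and 0.141 CPM in KO and 1.94, 2.37 and 3.09 in WT of batch 1 (-3.51 ± 0.35 over batches, adjusted p = 2.3e-06). Clgn, an endoplasmic reticulum chaperone known from testis, had 0.105, 0.0571 and 0 CPM in KO and 2.51, 1.51 and 0.943 in WT of batch 1 (-4.62 ± 0.55, adjusted p = 9.4e-06). BC107364 and 6430503K07Rik did not pass the filter over batches. BC107364 had 0 fragments in every KO library and at most 0.124 CPM in WT. Against these falls, Bmp3, a BMP ligand that opposes other BMPs, rose without H3K27ac in either KO line. It had 3.11, 2.91 and 4.09 CPM in KO and 0.314, 1.05 and 0.733 in WT libraries of batch 1, and 0.398 and 0.517 in KO and 0.249 and 0.270 in WT of batch 3 (1.97 ± 0.38, adjusted p = 0.0005). The others that rose without H3K27ac were Wnt2b, Shank2, Shroom3 and Flrt2.

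Genes with H3K27ac in 1 KO line and H3K27me3 in both gave further large falls. F2rl1, a protease-activated receptor, had 0, 0.114 and 0 CPM in KO and 3.70, 2.56 and 3.14 in WT of batch 1. In batch 3 it had no fragment in KO against 2.93 and 2.43 CPM in WT, at least 14.4-fold lower against a floor of 3 fragments per library. Col18a1, a basement membrane collagen and source of endostatin, had 2.11, 1.71 and 1.69 CPM in KO and 65.8, 38.5 and 34.4 in WT of batch 1. Batch 3 had 1.53 and 1.32 CPM in KO and 28.4 and 49.3 in WT, which gave -4.66 ± 0.25 (adjusted p = 1.6e-08). No KO library of Col18a1 came near a WT library.

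Of the 63 genes with H3K27ac in both and H3K27me3 in neither KO line, the 33 that rose over batches included genes of axon guidance, Hedgehog and Wnt signalling. Nrp2, a receptor for semaphorins and VEGF that guides axons, had 93.2, 116 and 110 CPM in KO and 46.7, 39.5 and 33.7 in WT of batch 1. In batch 3 it had 89.6 and 68.6 CPM in KO and 19.04 and 27.2 in WT, so no KO library overlapped WT (1.58 ± 0.13, adjusted p = 3.7e-07). Gli2, a transcription factor that carries the Hedgehog signal, was chosen after its values were seen. It had 12.4, 14.2 and 10.7 CPM in KO and 1.76, 3.35 and 2.67 in WT libraries of batch 1, and 31.5 and 24.5 in KO and 6.97 and 11.4 in WT of batch 3 (1.99 ± 0.21, adjusted p = 3.7e-06). Nkd1, an inhibitor of Wnt signalling that Wnt itself induces, had 101, 72.0 and 88.2 CPM in KO and 26.2, 37.8 and 40.9 in WT of batch 1. In batch 3 it had 153 and 127 CPM in KO and 32.7 and 26.1 in WT (1.71 ± 0.18, adjusted p = 3.3e-06).

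The 5 genes without H3K27me3 in KO cells that had the highest H3K27me3 folds in WT, Nrp2 among them, did not all rise. These folds belong to whole peaks, which covered only part of the window. In WT 532 and WT 541 they covered 439 and 413 bases at Pcgf1 and 69 and 188 at Chchd7. Cd151 had 575 and 367 bases covered, E2f6 426 and 188, and Nrp2 869 and 1509. The Pcgf1 peaks were 17600 and 16908 bases wide. The contribution of shifted peak edges was not tested. Cd151, a tetraspanin that binds integrins, had 90.7, 87.9 and 76.6 CPM in KO and 45.2, 51.3 and 49.2 in WT libraries of batch 1, and 65.8 and 68.4 in KO and 36.4 and 42.1 in WT of batch 3 (0.82 ± 0.08, adjusted p = 1.7e-06). Pcgf1, a subunit of variant Polycomb repressive complex 1, had 5.32, 3.997 and 5.15 CPM in KO and 4.70, 5.72 and 4.92 in WT of batch 1, groups that overlap (0.06 ± 0.16, adjusted p = 0.75). Chchd7, a small mitochondrial protein, had 0.14 ± 0.14 (adjusted p = 0.40). E2f6, a repressor found in a variant of the same complex, had 47.3, 42.1 and 45.0 CPM in KO and 56.5, 54.0 and 56.7 in WT libraries of batch 1, and 74.0 and 95.9 in KO and 67.6 and 79.8 in WT of batch 3. It lay lower in KO in batch 1 and overlapped in batch 3 (-0.08 ± 0.10 over batches, adjusted p = 0.49). Without KO library 2 of batch 3, the change of E2f6 was -0.22 with an adjusted p of 0.015. The 2 that fell were Ethe1, a mitochondrial sulfur dioxygenase (-0.50), and Magi2, a synaptic scaffold (-0.31), named after their values were seen.

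**Figure D5:**
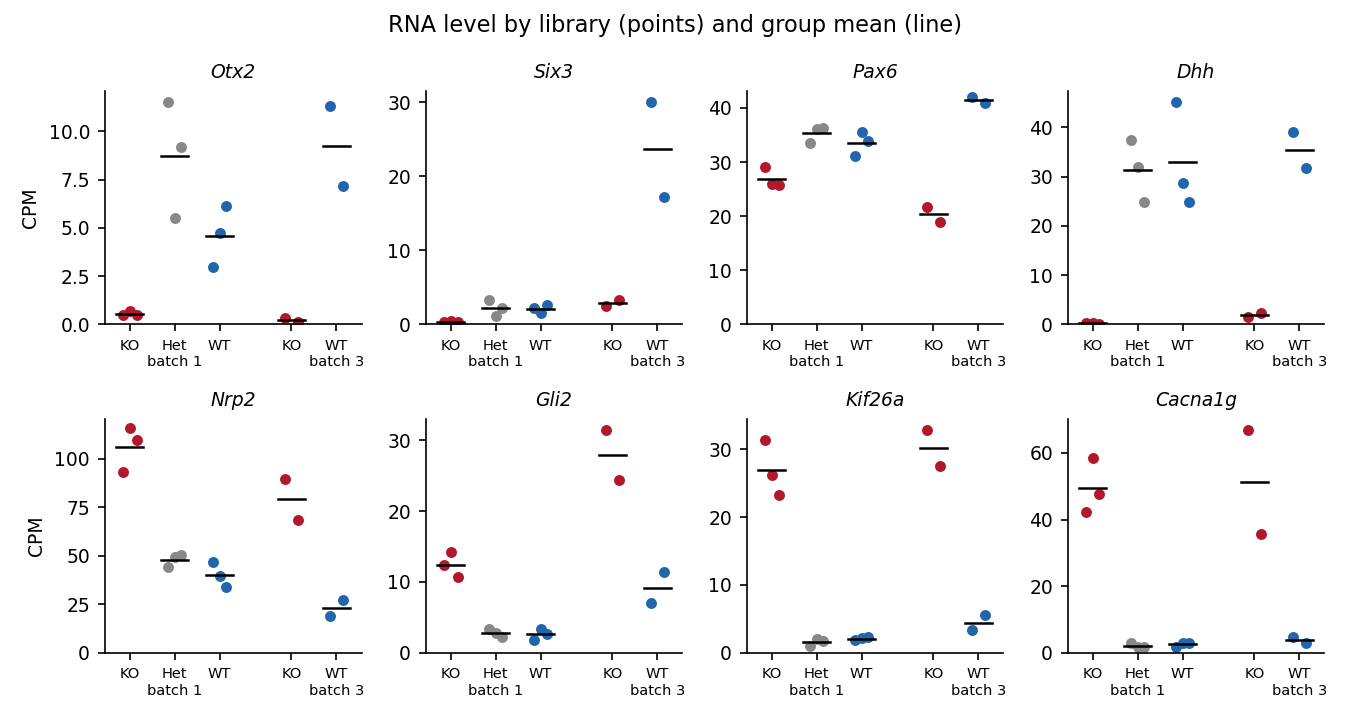
RNA level (CPM) in every library (points) with the group mean (line) for 8 of the genes, with KO left of Het and WT in batch 1 and left of WT in batch 3. Otx2, Six3, Pax6 and Dhh lie lower in KO than in WT, and Nrp2, Gli2, Kif26a and Cacna1g lie higher, in both batches.

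Of the 8 largest called rises without overlap of libraries, all but that of Ptchd4 came from promoters that kept both marks in both KO lines. Such promoters also gave 215 of all 318 rises over batches and 659 of the 964 genes tested. Cacna1g, a T-type calcium channel, had 42.3, 58.5 and 47.6 CPM in KO and 1.76, 2.96 and 2.99 in WT libraries of batch 1, and 66.9 and 35.7 in KO and 4.79 and 2.91 in WT of batch 3 (4.06 ± 0.25, adjusted p = 4.4e-08). Kcnn2, a calcium-activated potassium channel, had 80.2, 89.2 and 77.4 CPM in KO and 6.27, 10.5 and 6.23 in WT libraries of batch 1, and 18.7 and 10.7 in KO and 1.62 and 1.15 in WT of batch 3 (3.45 ± 0.24, adjusted p = 1.2e-07). Both channels lay higher in every KO library than in any WT library of the same batch. Cdc42ep3, an effector of Cdc42 in actin organisation, had 53.0, 37.3 and 39.9 CPM in KO and 5.39, 3.48 and 3.25 in WT of batch 1 (3.75 ± 0.23 over batches, adjusted p = 5.1e-08). Kif26a, an atypical kinesin shown above for its CG-rich promoter, had 31.4, 26.3 and 23.2 CPM in KO and 1.88, 2.104 and 2.25 in WT libraries of batch 1, and 32.9 and 27.5 in KO and 3.30 and 5.61 in WT of batch 3 (3.31 ± 0.22, adjusted p = 8.1e-08).

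Other large rises differed more between libraries. Srcin1, a synaptic regulator of Src, had 11.2, 23.3 and 14.5 CPM in KO and 0.753, 0.395 and 0.314 in WT libraries of batch 1, and 7.503 and 4.595 in KO and 0.809 and 1.01 in WT of batch 3 (4.13 ± 0.42, adjusted p = 2.7e-06). Shisa9, an auxiliary subunit of AMPA receptors, had a log2 fold change of 3.69 ± 0.47. Ptchd4, with H3K27me3 in 1 KO line, had 3.31 ± 0.47. A330033J07Rik had 2.79, 5.25 and 5.43 CPM in KO and 0.125, 0.197 and 0.367 in WT of batch 1, but 0.0664 and 0.0574 in KO and 0 in both WT libraries of batch 3, so its change of 4.21 ± 0.39 rests on batch 1. Among falls with both marks kept, Fam19a4, a secreted chemokine-like protein, had 0.0527, 0.171 and 0.141 CPM in KO and 3.14, 2.83 and 3.30 in WT of batch 1 (-4.76 ± 0.30, adjusted p = 5.6e-08).

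Among genes with both marks in all 4 lines, the 5 with the highest mean H3K27me3 fold differed in their RNA. Irx5, an Iroquois homeobox gene, and Crnde, a noncoding RNA that shares its peaks, had log2 fold changes of 0.27 ± 0.34 and -0.34 ± 0.26 (adjusted p = 0.50 and 0.27). Without KO library 1 of batch 1, Crnde had -0.64 (adjusted p = 0.019). Egr4, an activity-induced zinc finger factor, had 0.105, 0.286 and 0.0706 CPM in KO and 1.07, 0.789 and 1.31 in WT libraries of batch 1, and 0.199 and 0.747 in KO and 7.03 and 3.85 in WT of batch 3 (-3.15 ± 0.42, adjusted p = 2.3e-05). Isl2, a motor neuron homeobox factor, did not pass the filter, with 0 to 0.263 CPM in KO and 0.263 to 0.690 in WT over the 2 batches. E030030I06Rik had -0.16 ± 0.15 (adjusted p = 0.36), and an adjusted p of 0.042 by limma on FPKM.

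The 5 genes with the highest WT FPKM were of mixed function and changed in both directions. Grb10, an imprinted adaptor of insulin and growth factor receptors, had 107, 83.5 and 93.4 CPM in KO and 290, 310 and 324 in WT libraries of batch 1, and 94.5 and 109 in KO and 453 and 433 in WT of batch 3 (-1.85 ± 0.10, adjusted p = 1.9e-08). Tpm1, a tropomyosin of actin filaments, fell by 1.36 ± 0.07 on the log2 scale (adjusted p = 1.8e-08). Gpx4, which reduces lipid peroxides, rose by 0.39 ± 0.07 (adjusted p = 0.00033), and the adjusted p was 0.10 by limma on FPKM. Rpl26, a ribosomal protein whose near-identical copies make its count uncertain, rose by 0.34 ± 0.10 (adjusted p = 0.011). Its adjusted p was 0.38 by limma on FPKM and 0.055 without WT library 2 of batch 3. Hist3h2ba, a histone gene similar to others of its family, had -0.28 ± 0.33 over batches (adjusted p = 0.49), -0.79 in batch 1 (adjusted p = 0.049) and 0.93 in batch 3 (adjusted p = 0.17). Its WT level was 144.8 FPKM in batch 1 and 8.53 in batch 3, so its place among the 5 rests on batch 1.

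Pathway genes at these promoters moved in both directions in most lists. The background for these counts is 32.8% rising and 30.8% falling over all genes, and the lists are small. For carrying both marks, the background is 1333 of 23906 genes. Of 61 Wnt pathway genes, 15 had both marks, and of the 12 tested 7 rose and 3 fell. Apcdd1, a membrane inhibitor of Wnt, had 90.5, 136 and 115 CPM in KO and 9.47, 12.2 and 9.01 in WT libraries of batch 1, and 38.4 and 26.8 in KO and 12.9 and 5.001 in WT of batch 3 (2.88 ± 0.36, adjusted p = 1.4e-05). Frzb, a secreted Wnt antagonist, and Fzd6, a Wnt receptor, rose by 2.68 ± 0.39 and 1.84 ± 0.20. In the BMP and TGF-beta pathway 13 of 70 genes had both marks, and of the 10 tested over batches 5 rose and 1 fell, while in batch 3 alone 0 rose and 0 fell of 9. Nog, a secreted antagonist of BMP ligands, rose by 1.51 ± 0.35, and Inhbb, an activin subunit, by 0.76 ± 0.16. Tgfbi, a matrix protein induced by TGF-beta, had 0.83 ± 0.39 (adjusted p = 0.081), and adjusted p-values of 0.041 without KO library 2 and 0.0046 without WT library 1 of batch 3.

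Most growth factor genes with both marks did not pass the filter on low counts. In the FGF, EGF, PDGF and neurotrophin list 14 of 79 genes had both marks, and of the 6 tested 0 rose and 3 fell. Fgfr3, an FGF receptor of progenitors and astrocytes, had 72.0, 99.8 and 85.2 CPM in KO and 173, 170 and 163 in WT libraries of batch 1, and 19.8 and 15.05 in KO and 127 and 47.0 in WT of batch 3 (-1.46 ± 0.28, adjusted p = 0.00051). Fgf11, an intracellular FGF, and Bdnf, a neurotrophin, fell by 1.62 ± 0.16 and 0.87 ± 0.23. Igfbp7, a secreted binding protein of insulin-like growth factors, had 0.44 ± 0.36 (adjusted p = 0.31). Of the Hedgehog and Notch list 2 of 31 genes had both marks. Dhh fell, and Dlk2, a Notch-related membrane protein, had -0.36 ± 0.44 (adjusted p = 0.50).

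Channel, receptor and adhesion genes were among the most numerous. Of 187 voltage-gated and related channels 39 had both marks, and of 29 tested 3 rose and 10 fell. Against the rises of Cacna1g and Kcnn2, Kcnip1, a subunit of A-type potassium channels, had -2.74 ± 0.34. Of 126 neurotransmitter receptors 29 had both marks, and of 19 tested 6 rose and 6 fell. Sstr4, a somatostatin receptor, had -3.93 ± 0.52, Sstr2, its relative, 1.69 ± 0.44, Grik3, a kainate receptor, -1.90 ± 0.34, and Tacr1, the substance P receptor, 1.74 ± 0.34. The change of Sstr2 rests on batch 1, since batch 3 had 0.133 and 0.115 CPM in KO and 0.187 and 0 in WT. Of 200 axon guidance and adhesion genes 31 had both marks, and of 22 tested 8 rose and 5 fell. Cdh11, a cadherin of mesenchymal and neural cells, rose by 2.18 ± 0.19, whereas Epha2, an ephrin receptor, and Unc5a, a netrin receptor, fell by 3.09 ± 0.30 and 1.69 ± 0.30.

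Matrix genes, transporters and factors of other families made up the remaining lists. Of 86 collagens, laminins and integrins 15 had both marks, and of those 3 rose and 7 fell. Col27a1, a fibrillar collagen, had 110, 178 and 163 CPM in KO and 11.98, 20.6 and 18.3 in WT libraries of batch 1, and 72.4 and 49.6 in KO and 15.9 and 9.46 in WT of batch 3 (2.83 ± 0.24, adjusted p = 4.9e-07). Col4a1, of the basement membrane, rose by 2.21 ± 0.22, and Itga8, an integrin, fell by 2.79 ± 0.28. The fibroblast marker sums given above were also higher in KO than in WT, and their contribution to these rises was not tested. Of 386 solute carriers 24 had both marks, and of 18 tested 6 rose and 5 fell, among them Slc30a10 and Slc35f3 higher (1.67 ± 0.50 and 1.87 ± 0.24) and Slc16a10 lower (-2.33 ± 0.25). In batch 3 alone Slc30a10 had 0.26 (adjusted p = 0.80), and its KO and WT libraries overlapped. Slc35f2 had no fragment in KO of batch 3, and lay at least 7.13-fold below WT there against the floor of 3 fragments. Of 190 other developmental transcription factors 35 had both marks, and of 22 tested 7 rose and 5 fell. Atoh8 and Hey2, basic helix-loop-helix factors, rose by 2.51 ± 0.27 and 2.35 ± 0.31, and Ebf3 fell by 2.17 ± 0.17.

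Polycomb genes themselves differed in whether they carried both marks. None of 14 genes of Polycomb repressive complex 2 and the H3K27 demethylases did, and none of 6 H3K27 acetyltransferases and class I deacetylases. Over all genes 1333 of 23906 did, so lists this short can hold none at that share, and no result is drawn from them. Of 23 genes of Polycomb repressive complex 1, 6 did, and 3 of the 6 rose while 0 fell over batches, with 0 called in batch 3. Pcgf2, a core subunit, had 4.84, 8.85 and 5.93 CPM in KO and 1.07, 1.18 and 1.52 in WT libraries of batch 1, and 8.96 and 7.29 in KO and 4.11 and 6.02 in WT of batch 3 (1.61 ± 0.31, adjusted p = 0.00049). Cbx8 and Cbx2, which read H3K27me3, rose by 0.52 ± 0.10 and 0.37 ± 0.08. Cbx7, a further reader that lacked H3K27me3 in both KO lines, had 0.44 ± 0.21 (adjusted p = 0.080). Of 7 CDK inhibitor genes 1 had both marks, the imprinted Cdkn1c, with -0.33 ± 0.29 (adjusted p = 0.35).

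No change of these genes was detected in Het cells. In Het against WT of batch 1, 0 genes rose and 0 fell of 947 tested, beside 0.0146% rising and 0.00% falling among all genes. At an unadjusted p under 0.05 there were 72 of the 947, beside 1175 of all 13677 genes tested. DESeq2 called 1 of the genes with both marks and limma on FPKM called 0. Otx2 had 11.6, 5.49 and 9.20 CPM in Het and 2.95, 4.73 and 6.13 in WT, and Dhh had 37.3, 31.8 and 24.9 in Het and 45.2, 28.6 and 24.9 in WT, so the groups overlapped for both.

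The KO change itself differed between batches for some of the genes. By the test of that difference, 87 genes had a higher change in batch 1 than in batch 3 and 67 a lower one, of 997 tested, beside 8.20% and 10.7% of all genes. This count of 154 was 96 without KO library 3 of batch 1, 76 without KO library 2 of batch 3, 77 without WT library 1 and 95 without WT library 2 of batch 3.

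Called m6A in the RNA of these genes was set beside that of genes with H3K27ac alone, which are expressed more highly. The m6A samples were of WT cells only, 2 immunoprecipitated and 2 input, so the 4 m6A lists are not 4 replicates. Peaks of m6A lay in exons in all 4 m6A lists for 356 of 1333 genes (26.7%), beside 44.2% with H3K27ac alone. At like WT levels the shares were 39.4% against 45.2% between 1 and 5 FPKM, 54.1% against 57.0% between 5 and 20 FPKM, and 59.0% against 42.6% at 20 FPKM or more, where there were 39 genes. Calling m6A needs RNA, so no test was made, and the contribution of RNA level to the overall shares was not tested.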

How the data were processed

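The genes described, the lists and the tests were chosen with earlier results of these data known. Per the submitters' processing notes, reads were processed with TopHat2 2.1.0, TopHat, Cufflinks, Cuffdiff, Bowtie2 2.3.1 and MACS2 on mm10; the role of each is not given in the sources used here. The deposited expression tables hold estimated counts (fragments per locus before scaling) and FPKM as the authors scaled them, per the file headers. The deposited peak lists hold a fold ratio over input and −log10 q-values from the authors' peak caller, 1 line per list. The table of batch 2 was identical to that of batch 1, so the batch 2 libraries are not analysed here.

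Estimated counts were summed per gene symbol or joined symbols, with loci that had no symbol left out, and rounded to whole numbers. They were filtered by filterByExpr and tested with edgeR's quasi-likelihood test on TMM-scaled counts over all such genes. Adjustment was by Benjamini-Hochberg (adjusted p under 0.05). The comparisons were KO over WT with batch as a term, KO over WT in each batch, and Het over WT in batch 1. CPM are those counts per 1000000 after TMM scaling, and SEs were derived from the fit. Strand use in counting is not given in the sources used here, so overlapping antisense genes cannot be told apart. Genes were described by rule: the 8 largest called rises and falls without overlap of libraries in either batch; the 5 highest WT folds of the mark missing from both KO lines, the 5 highest H3K27me3 folds with both marks in all lines, the 5 highest WT FPKM; and the 4 largest changes of each list. Genes outside this rule were named after their values were seen, which is not repeated beside each of them. Precision rests on 14087371 to 20046524 fragments per library and on 2 or 3 libraries a group, and fragment floors cover counting error only. Alternatives were DESeq2, limma on log2(FPKM + 1), no filter, other windows and peak thresholds, and leaving out each library or line; the fits were checked on simulated data. Tools were R 4.3.3, edgeR 4.0.16, limma 3.58.1 and DESeq2 1.42.0.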

Additional observations from a re-analysis of the deposited data

Results flagged for a closer look

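For 13 of the genes described by rule, the KO change differed between the batches by edgeR's test of the difference (batch 1 minus batch 3, log2 scale; Benjamini-Hochberg adjusted over all genes).
The rises of 3 genes were larger in batch 1. Srcin1 differed by 2.39 (5.10 in batch 1 and 2.72 in batch 3, adjusted p = 0.025), Shisa9 by 2.38 (4.51 and 2.13, adjusted p = 0.044) and Pcgf2 by 1.71 (2.40 and 0.68, adjusted p = 0.013). The falls of 3 others were larger in batch 1. Dhh differed by -3.07 (-7.29 in batch 1 and -4.22 in batch 3, adjusted p = 0.0093), Barhl2 by -4.39 (-6.01 and -1.62, adjusted p = 0.016) and Kcnip1 by -2.23 (-3.96 and -1.73, adjusted p = 0.0032). In Nkd1 the rise was larger in batch 3, by -0.90 (1.35 and 2.25, adjusted p = 0.031).
The falls of 3 genes were larger in batch 3. Unc5a differed by 1.45 (-1.08 in batch 1 and -2.53 in batch 3, adjusted p = 0.033), 6430503K07Rik by 5.03 (-0.95 and -5.98, adjusted p = 0.038) and Slc35f2 by 4.87 (-2.64 and -7.51, adjusted p = 0.031). The batch 3 values of 6430503K07Rik and Slc35f2 were fitted to KO libraries with no fragment, depend on the prior count and are no bound. The fitted changes had opposite signs in 3 genes. E2f6 differed by -0.48 (-0.28 in batch 1 and 0.20 in batch 3, adjusted p = 0.041), Dlk2 by -2.20 (-1.26 and 0.94, adjusted p = 0.045) and Cdkn1c by 1.61 (0.25 and -1.36, adjusted p = 0.021). Batches 1 and 3 also differ in lines and in date, so these cannot be told apart.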

How the results depend on the processing

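No paired analysis was possible because the expression tables tie no library to a line, and the KO and WT groups share no replicate numbers that mark a common source. Several alternatives were chosen after seeing the data: the outcome counts under each setting, autosomes only, and genes sharing no window. The number of genes with both marks was 1333, and it was 438 with peaks at a −log10 q of at least 3, 652 with at least 500 shared bases, and 1797 to 2109 without 1 WT line. Both marks in both KO lines held for 62.3% of genes, and for 44.4 to 82.1% when 1 KO or WT line was left out of the rule or the count. Genes called over batches, in batch 1 and in batch 3 numbered 237, 243 and 131 at the stricter q, and 316, 334 and 195 with the shared bases, following from fewer genes. Rises without H3K27me3 numbered 19 over batches, 17 in batch 1 and 13 in batch 3 with windows of 500 bases, 21 in batch 1 at the stricter q, and 16, 17 and 14 with the shared bases, where falls without H3K27ac over batches numbered 34. These rules also applied to the KO lists, so a gene without a mark there was below the rule and could still have a peak. Falls without H3K27ac in batch 3 numbered 22, and 9 by limma and 14 to 19 without 1 library. The 154 differences between batches ranged from 76 to 195 without 1 library, and the Het calls were 1 by DESeq2. The log2 fold change of Pcgf1 was -0.040 by limma and -0.10 to 0.15 without 1 library (-0.10 without KO library 2 and -0.061 without WT library 2 of batch 3), and that of Chchd7 was -0.044 by limma. The cause was not tested. Of 72 described genes tested over batches, 60 were called. Of those, 58 were called in the same direction in every alternative that held the gene, the exceptions being Rpl26 and Gpx4. Many of these genes were picked for large or called changes in the same data, so this stability was favoured by the choice and is no support. An alternative whose filter removed a gene was not counted for it. Depth limits the lowest genes, and 325 genes with their own entry were not tested.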
